A study of Mus musculus with 45 samples.

Results

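*Bcl6* encodes a transcriptional repressor, and its RNA was followed through all 7 groups of the series as 1 gene of the 55450 listed for slice microglia, the 47643 listed for adult microglia and the 43411 listed for brain tissue. The gene was chosen by its measured values in the slice treatments, so its levels there are given as a description and without a test. Sorted microglia (CD11b high, CD45 intermediate) came from organotypic brain slices, coronal slices of neonatal C57BL/6 mouse brain that had spent 2 weeks on a membrane in culture. They had then received medium only (9 samples), 50 ng/mL TNF (11 samples) or 20 ng/mL GM-CSF (9 samples) for 24 h. Each slice sample pooled 3 slices per the series description, fewer for some samples per the study, which pooled several independent experiments. Sorted microglia of the same phenotype also came from female C57BL/6 mice of 10 to 15 weeks, 24 h after an injection of 1 mg/kg LPS (4 samples) or of PBS (4 samples). Whole brain tissue, also from C57BL/6 mice of 10 to 15 weeks, was taken 24 h after 1 mg/kg LPS (4 samples) or from mice given nothing (4 samples), so its control was not injected. The labels give the same strain for every sample and no engineered allele.

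BCL6 belongs to the BTB zinc finger family, proteins that bind DNA through zinc fingers and recruit corepressors such as NCOR1 and BCOR through the BTB domain. It is best known as the factor that directs germinal center B cells and follicular helper T cells, and in macrophages it restrains inflammatory genes. In lymphocytes, cytokines that activate STAT5 lower *Bcl6* and FOXO factors raise it, while BLIMP1 (*Prdm1*) and BCL6 repress each other. GM-CSF signals through a receptor whose beta chain activates JAK2 and STAT5, TNF signals mainly through NF-kappaB, and LPS acts through TLR4.

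*Bcl6* (ENSMUSG00000022508) lies on the minus strand of chromosome 16 at 23965052 to 23988852 (GRCm38, GENCODE M21), with 2 annotated transcripts and 6700 bases of merged exons. A short protein-coding model on the other strand, *Gm37419*, overlaps it at 23988482 to 23988595. In the slice libraries this model held 7 counts in all against 7839 for *Bcl6*. Whether the counting used strand is not given, so reads in the overlap cannot be assigned with certainty. The 250 bases before each of its RefSeq starts (GRCm38.p6, printed 5′ to 3′ on the minus strand) are shown because they hold the STAT type motif TTCNNNGAA, in capitals, which equals its own reverse complement and which the recognition sequence of BCL6 itself resembles.
Bcl6 upstream start, chr16:23988853-23989102: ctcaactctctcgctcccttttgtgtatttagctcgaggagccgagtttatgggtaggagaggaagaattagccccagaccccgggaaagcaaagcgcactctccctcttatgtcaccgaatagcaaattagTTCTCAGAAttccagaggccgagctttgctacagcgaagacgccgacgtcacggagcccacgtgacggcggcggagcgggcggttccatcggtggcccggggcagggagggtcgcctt
Bcl6 downstream start, chr16:23981284-23981533: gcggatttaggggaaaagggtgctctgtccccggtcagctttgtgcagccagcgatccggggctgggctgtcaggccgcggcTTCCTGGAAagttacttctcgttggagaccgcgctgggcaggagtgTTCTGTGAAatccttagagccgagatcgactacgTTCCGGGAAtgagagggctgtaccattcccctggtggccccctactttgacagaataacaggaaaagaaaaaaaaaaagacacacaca
The first stretch ends at the 5′ end of the gene. The second lies inside the gene, with 0 bases in exons of GENCODE M21, and its RefSeq start is the start of neither GENCODE M21 transcript. The first held 1 match, TTCTCAGAA at 118 bases before the start. The second held 3, TTCCTGGAA at 168, TTCTGTGAA at 122 and TTCCGGGAA at 88 bases before its start. Of 32851 such stretches of 27025 genes, 7.02% held at least 1 match, 0.317% at least 2 and 9 stretches at least 3. Among 10 STAT5 response genes, 5 had a stretch, and 1 of these, *Socs3*, held a match. A match is a description of the letters and not of bound protein, which was not measured here.

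*Bcl6* was well detected in microglia in medium, slightly lower with TNF and lower in every library with GM-CSF. Levels are in CPM, the reads of the gene relative to the effective size of its library. In medium they ran from 46.5 to 74.0 CPM with a median of 56.8, from 311 to 595 counts. With TNF they ran from 26.7 to 68.1 CPM with a median of 42.8, from 189 to 402 counts. With GM-CSF they ran from 2.33 to 12 CPM with a median of 6.28, from 16 to 88 counts. The GM-CSF range lay entirely below the other slice ranges, whereas those of medium and TNF overlapped. RNA was measured over whole samples, so fewer cells with *Bcl6* and less *Bcl6* RNA per cell cannot be told apart.

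**Figure D1:**
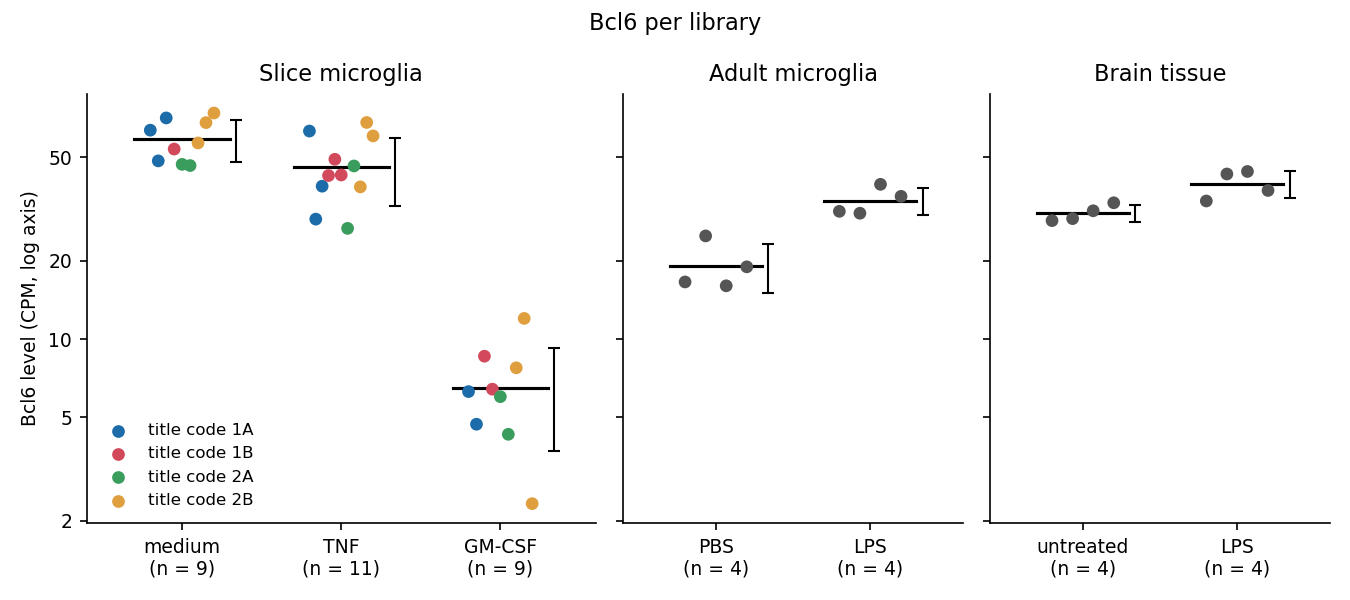
*Bcl6* level in each library on a log axis of CPM, by treatment in slice microglia, adult microglia and brain tissue. Points are libraries, colored in slice microglia by the code in the sample title, horizontal lines are means and bars are SD. The 9 GM-CSF libraries sit between 2.33 and 12 CPM, below all other libraries of the slice microglia.

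With GM-CSF the mean was 6.49 ± 2.78 CPM (SD, n = 9) against 58.8 ± 10.7 CPM (SD, n = 9) in medium, a log2 fold change of -3.17 (SE 0.21), or 9.03-fold lower. This is a description, since the comparison was used to choose the gene, and 5.96% of the 11313 genes tested were called lower (adjusted p under 0.05 and fold over 1.5, edgeR) and 4.84% higher. With counts scaled by total counts in place of TMM factors, 814 genes were called higher and 460 lower, against 548 and 674, and *Bcl6* was at -3.07. Of the other genes tested, 3 had a lower log2 fold change, *Gm20559*, *Olfm4* and *Vsig4* (a phagocytic receptor of resident macrophages), here named after their values were seen. Their levels in medium were low, at 0.195 ± 0.285, 2.35 ± 2.08 and 6.19 ± 4.46 CPM (SD, n = 9). *Bcl6* was thus the most abundant in medium of the 4 genes with the lowest log2 fold changes.

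With TNF the mean was 45.9 ± 13.4 CPM (SD, n = 11), a log2 fold change of -0.36 (SE 0.18) against medium, or 1.28-fold lower. This is about 2 standard errors from 0 and is not tested here for the same reason, while 11.7% of genes were called lower with TNF and 9.1% higher. Of the 11 TNF libraries, 7 lay below every medium library and 0 above. Between the cytokines, *Bcl6* was 7.05-fold higher with TNF than with GM-CSF, a log2 difference of 2.82 (SE 0.20), and all 11 TNF libraries exceeded every GM-CSF library. In that comparison 8.25% of genes were called higher and 7.96% lower.

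The sample titles carry a code (1A, 1B, 2A or 2B) that the labels do not explain. Whether the 4 codes mark the independent experiments of the study is not given. With code 1A the means were 61.0 CPM in medium, 43.6 with TNF and 5.49 with GM-CSF. With code 1B they were 53.8 CPM in a single medium library, 44.8 with TNF and 7.5 with GM-CSF. With code 2A they were 46.7, 36.5 and 5.15 CPM, and with code 2B 66.3, 55.7 and 7.36 CPM, in the same order. The order medium, TNF, GM-CSF was thus the same within each of the 4 codes. Refitted within codes 1A and 1B, the log2 fold changes were -3.18 (SE 0.23) for GM-CSF and -0.41 (SE 0.18) for TNF, and within codes 2A and 2B they were -3.16 (SE 0.33) and -0.29 (SE 0.29).

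The coefficient of variation of the CPM was 18.2% in medium, 29.2% with TNF and 42.9% with GM-CSF, where counting error alone, without the spread between samples, would give 4.77%, 5.66% and 14.1%. To place *Bcl6* among other genes of its own library, CPM were divided by exon length in kb and ranked over the genes with at least 1 count. *Bcl6* then stood at the 69.2th percentile in the median medium library (65.3 to 74.6), at the 64.4th with TNF (55.0 to 71.0) and at the 32.9th with GM-CSF (15.3 to 43.6).

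The sorted cells carried the microglia markers, and these also differed between treatments. All 10 markers of the microglia list were detected in each slice group, and their summed level ran from 21705 to 29556 CPM in medium, from 10612 to 13604 with TNF and from 15256 to 17019 with GM-CSF. The 5 border macrophage markers, all detected, summed to 90.6 to 214 CPM in medium (median 129.7), 35.2 to 109 with TNF (median 51.9) and 134 to 299.8 with GM-CSF (median 165). The 5 B cell markers summed to at most 10.8 CPM in medium, 3.40 with TNF and 2.33 with GM-CSF, with *Pax5* at 0 counts in every slice library. The 5 T cell markers summed to 8.03 to 39.6, 3.81 to 30.1 and 6.26 to 23.6 CPM in the same order, with *Cd8a* at 0 in every slice library. The 7 neutrophil markers summed to 0.134 to 14, 2.11 to 113 and 1.08 to 42.8 CPM, with *Ly6g* at 0 in every slice library. Higher sums came from the 5 monocyte markers, at 154 to 485, 260 to 490 and 171 to 590 CPM in the same order. Of these markers *Ly6c2* and *Plac8* were at 0 in medium and *Plac8* at 0 with GM-CSF. The 5 oligodendrocyte markers summed to 139 to 221, 150 to 300 and 109 to 175 CPM. The part of these shifts in the *Bcl6* levels was not tested.

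In adult microglia *Bcl6* moved the other way and rose with LPS. The PBS libraries held 16.6, 24.9, 16 and 19.0 CPM, and the LPS libraries 31.0, 30.5, 39.4 and 35.4 CPM. The groups did not overlap, and all 4 LPS libraries exceeded the highest PBS library. The means were 34.1 ± 4.17 against 19.1 ± 4.07 CPM (SD, n = 4 each), a log2 fold change of 0.83 (SE 0.14), or 1.78-fold higher, with an adjusted p of 0.000485 in edgeR's quasi-likelihood test over 12987 genes. LPS called 14.4% of these genes higher and 13% lower, so a call was common in this comparison. The comparison uses other animals and another table than the slices, but the gene was followed with its results known.

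In these same libraries other markers moved with LPS. The 10 microglia markers summed to 60595 to 67393 CPM with PBS and 39238 to 45974 with LPS. The 5 B cell markers summed to 13.1 to 18 CPM with PBS and 2.41 to 6.08 with LPS, with *Pax5* at 0 in both groups, and the 7 neutrophil markers to 40.6 to 83.6 and 1.61 to 8.31 CPM. The 5 endothelial markers summed to 28.9 to 36.3 CPM with PBS and 10.2 to 13.7 with LPS, with *Cldn5* and *Tek* at 0. For the 5 oligodendrocyte markers the sums were 177 to 200 CPM with PBS and 134 to 156 with LPS, without overlap. The 5 markers of border macrophages were higher where *Bcl6* was, at 8.94 to 15.3 CPM with PBS and 22.4 to 27.5 with LPS, without overlap. Monocyte markers summed to 11.5 to 16.5 and 7.71 to 27.2 CPM and T cell markers to at most 0.215 CPM. The part of these shifts in the *Bcl6* level was not tested.

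In whole brain tissue the rise was smaller. The untreated libraries held 28.5, 29.1, 31.1 and 33.4 CPM and the LPS libraries 34, 43.1, 44.1 and 37.3 CPM, with all 4 LPS libraries above the untreated ones by a margin of 0.02 on the log2 scale. The means were 39.6 ± 4.83 against 30.5 ± 2.23 CPM (SD, n = 4 each), a log2 fold change of 0.37 (SE 0.09) and an adjusted p of 0.0115 in edgeR's quasi-likelihood test over 15083 genes. The 1.30-fold change stayed under the 1.5-fold limit, so *Bcl6* was not called, where 2.63% of genes were called higher and 0.55% lower. Without the first untreated library the adjusted p was 0.0506. The 7 neutrophil markers summed to 0.503 to 1.55 CPM in untreated tissue (6 of them listed) and 3.16 to 7.97 with LPS, and the microglia markers to 310 to 353 and 243 to 408 CPM. The 5 border macrophage markers, with *Mrc1* at 0, summed to 3.22 to 4.57 CPM in untreated tissue and 6.96 to 8.61 with LPS, without overlap and in the direction of *Bcl6*. In slices their median was highest with GM-CSF, where *Bcl6* was lowest. The 5 oligodendrocyte markers went the other way, at 5224 to 5618 CPM in untreated tissue and 3773 to 4434 with LPS, without overlap. T cell markers also fell without overlap. Monocyte and astrocyte markers had higher medians with LPS but overlapping ranges. The part of these shifts in the *Bcl6* level was not tested.

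**Figure D2:**
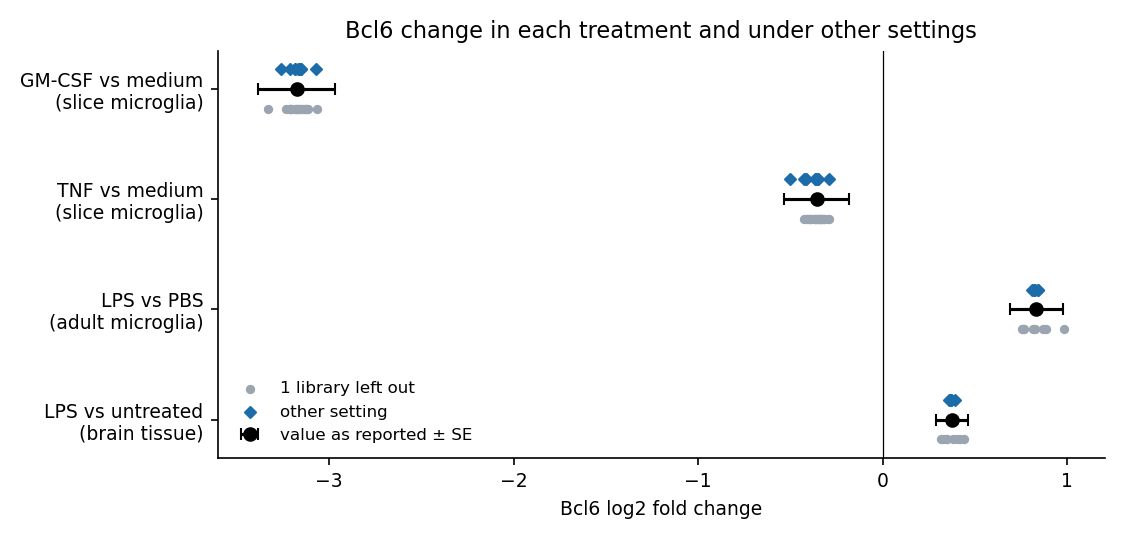
*Bcl6* log2 fold change in the 4 treatments, with the reported value and its SE in black, values with 1 library left out in gray and values under other settings in blue. Every value of GM-CSF and TNF lies below 0 and every value of LPS above 0, with GM-CSF at -3.17 and TNF at -0.36.

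The LPS effect was 0.45 higher on the log2 scale in adult microglia than in brain tissue (SE 0.17), which did not pass the threshold (edgeR interaction test, adjusted p = 0.0581), where 19.7% of 16676 genes were called. This call turned on single libraries. Without the second PBS library of the adult microglia the difference was 0.60 with an adjusted p of 0.00522, and without the first or the second LPS library of the adult microglia or the third LPS library of brain tissue the adjusted p was 0.0448, 0.0332 and 0.0470. With no filter on low counts it was 0.0416. Tissue, library kit and kind of control coincide in this comparison and cannot be told apart.

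Set side by side, with each table scaled on its own and with different kits, the group means ran from 58.8 CPM in slice microglia in medium through 45.9 with TNF, 39.6 in brain tissue with LPS, 34.1 in adult microglia with LPS, 30.5 in untreated brain and 19.1 in adult microglia with PBS to 6.49 in slice microglia with GM-CSF. Neighbors in this order had overlapping ranges except that untreated brain lay above PBS microglia and PBS microglia above GM-CSF. Per exon length and within the library, *Bcl6* stood at the 50.6th to 57.7th percentile with PBS, at the 59.8th to 64.9th with LPS, and in brain tissue at the 60.1st to 62.9th without and the 62.7th to 68.0th with LPS. No test was made across tables.

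The genes around *Bcl6* gave the next set of values. The lists below were written with earlier results of these data known, so their counts describe the pathway and are no independent evidence. Levels and changes of single genes are in CPM and log2 fold change from the same edgeR fits, and adjusted p-values are those over all genes tested.

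Among regulators upstream of *Bcl6* (15 genes, 14 tested in slices), GM-CSF raised 1 and lowered 3, TNF raised 3 and lowered 2, and LPS in adult microglia raised 5 and lowered 5 of 15. Over all genes tested, 4.84% were called higher and 5.96% lower with GM-CSF, 9.1% and 11.7% with TNF and 14.4% and 13% with LPS. Their median log2 fold changes were -0.10, 0.08 and -0.43, against -0.04, -0.03 and 0.01 over all genes. *Csf2rb*, the common beta chain of the GM-CSF receptor, rose from 128 ± 11.2 to 273 ± 22.8 CPM with GM-CSF (n = 9 each, log2 1.09, adjusted p = 4.82e-14, edgeR), to 308 ± 34.7 with TNF and, in adult microglia, from 109 ± 8.99 to 261 ± 47.0 with LPS. *Csf2ra*, the alpha chain that binds GM-CSF, was at 174 ± 22 CPM in medium and 181 ± 25.6 with GM-CSF, and rose with LPS in adult microglia (log2 1.52, SE 0.17). The receptor chains were thus measured at high levels in every microglia group.

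The STAT5 genes themselves were not called in any of the 4 treatments. *Stat5a* was at 10.0 ± 3.00 CPM in medium and 8.73 ± 3.42 with GM-CSF, and *Stat5b* at 27.2 ± 9.48 and 29.7 ± 6.91 CPM (SD, n = 9 each). In adult microglia *Stat5b* was at 85.3 ± 7.47 CPM with PBS and 61.1 ± 5.25 with LPS (log2 -0.48, adjusted p = 0.000516 in edgeR, under the fold limit). *Stat3* rose with LPS in adult microglia from 218 ± 12.6 to 370 ± 16.6 CPM (log2 0.76, SE 0.07).

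*Foxo1*, a FOXO factor that activates *Bcl6* in lymphocytes, fell in all 3 microglia treatments. It went from 30.3 ± 6.23 CPM in medium to 17.7 ± 3.24 with GM-CSF (log2 -0.78, adjusted p = 7.14e-05, edgeR) and 16.4 ± 3.67 with TNF (-0.88, adjusted p = 1.88e-06), and from 57.1 ± 2.16 to 35.1 ± 3.90 with LPS in adult microglia (-0.70, adjusted p = 4.09e-05). These changes come from separate comparisons, and their difference was not tested. *Foxo3* fell with TNF (-0.82) and with LPS (-0.99) and was at -0.51 (SE 0.25, adjusted p = 0.146, edgeR) with GM-CSF.

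*Prdm1*, the gene of BLIMP1, fell together with *Bcl6* under GM-CSF, from 15.6 ± 4.29 to 7.28 ± 2.21 CPM (SD, n = 9 each, log2 -1.10, adjusted p = 0.00475, edgeR). With limma-voom this adjusted p was 0.0685. With TNF *Prdm1* was at 18.3 ± 7.33 CPM (log2 0.23, SE 0.27). With LPS in adult microglia it fell from 52.4 ± 2.12 to 19.3 ± 1.83 CPM (log2 -1.44, adjusted p = 2.93e-07, edgeR) while *Bcl6* rose. The pair therefore moved in the same direction with GM-CSF and in opposite directions with LPS. *Irf4*, an activator of *Prdm1* in lymphocytes, was tested only in adult microglia, where it fell with LPS (log2 -1.25, SE 0.18). In brain tissue 4 of 12 tested regulators rose and 0 fell, where 2.63% and 0.55% of all genes did. Among these regulators *Csf2rb* rose by 1.89, *Csf2rb2* by 1.30 and *Irf8* by 0.68 on the log2 scale.

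The STAT5 response genes rose in both cytokine treatments, in which 4.84% and 9.1% of all genes were called higher. With GM-CSF 7 of 10 were called higher and 0 lower (median log2 1.08), and with TNF 8 of 10 and 0 (median 1.51). *Cish* and *Socs2*, feedback inhibitors of cytokine receptors, led with GM-CSF. *Socs2* was at 5.38 ± 2.17 CPM in medium, 170 ± 12.5 with GM-CSF (log2 4.98, SE 0.16) and 21.5 ± 2.98 with TNF (1.99, SE 0.15). *Cish* was at 0.359 ± 0.441, 20.5 ± 5.90 and 3.93 ± 1.75 CPM (log2 5.77, SE 0.45, and 3.39, SE 0.44). Both were lower with TNF than with GM-CSF, by 2.99 and 2.38 on the log2 scale, while *Bcl6* was higher there by 2.82.

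Other members were higher with TNF than with GM-CSF. *Socs1*, at 3.71 ± 1.66 CPM in medium, was at 3.61 ± 1.17 with GM-CSF and 12 ± 4.08 with TNF, and *Socs3*, an inhibitor of gp130 signals, at 64.4 ± 16.7, 78.7 ± 17.5 and 187 ± 33.1 CPM. The cell cycle gene *Ccnd2* rose alike with both, from 5.91 ± 2.61 to 20.0 ± 6.36 and 18.8 ± 6.19 CPM. Of the cytokines, GM-CSF raised *Myc* (99.7 ± 14.3 to 270 ± 44.8 CPM), and with TNF it was at 126 ± 27.8 CPM (log2 0.34, SE 0.11), the direct comparison giving -1.10 for TNF against GM-CSF.

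With LPS in adult microglia, where *Bcl6* rose, 5 of 9 tested STAT5 response genes rose and 0 fell (median 0.60), against 14.4% and 13% of all genes. *Socs3* went from 36.2 ± 2.49 to 383 ± 33.7 CPM (log2 3.40, adjusted p = 6.42e-10, edgeR, n = 4 each), *Pim1* from 0.808 ± 0.477 to 10.5 ± 2.73 and *Ccnd2* from 0.204 ± 0.171 to 8.51 ± 4.70. *Socs2* was at 1.27 ± 0.408 and 1.26 ± 0.667 CPM (log2 0.00, SE 0.40), and *Cish* was too low to be tested. *Socs2*, among the largest GM-CSF responses of the list, thus showed no detectable change with LPS. In brain tissue 2 of 8 rose, *Socs3* (log2 1.67) and *Myc* (0.65), and 0 fell, where 2.63% of all genes were called higher. The call of *Myc* was lost with DESeq2 (adjusted p = 0.0617).

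**Figure D3:**
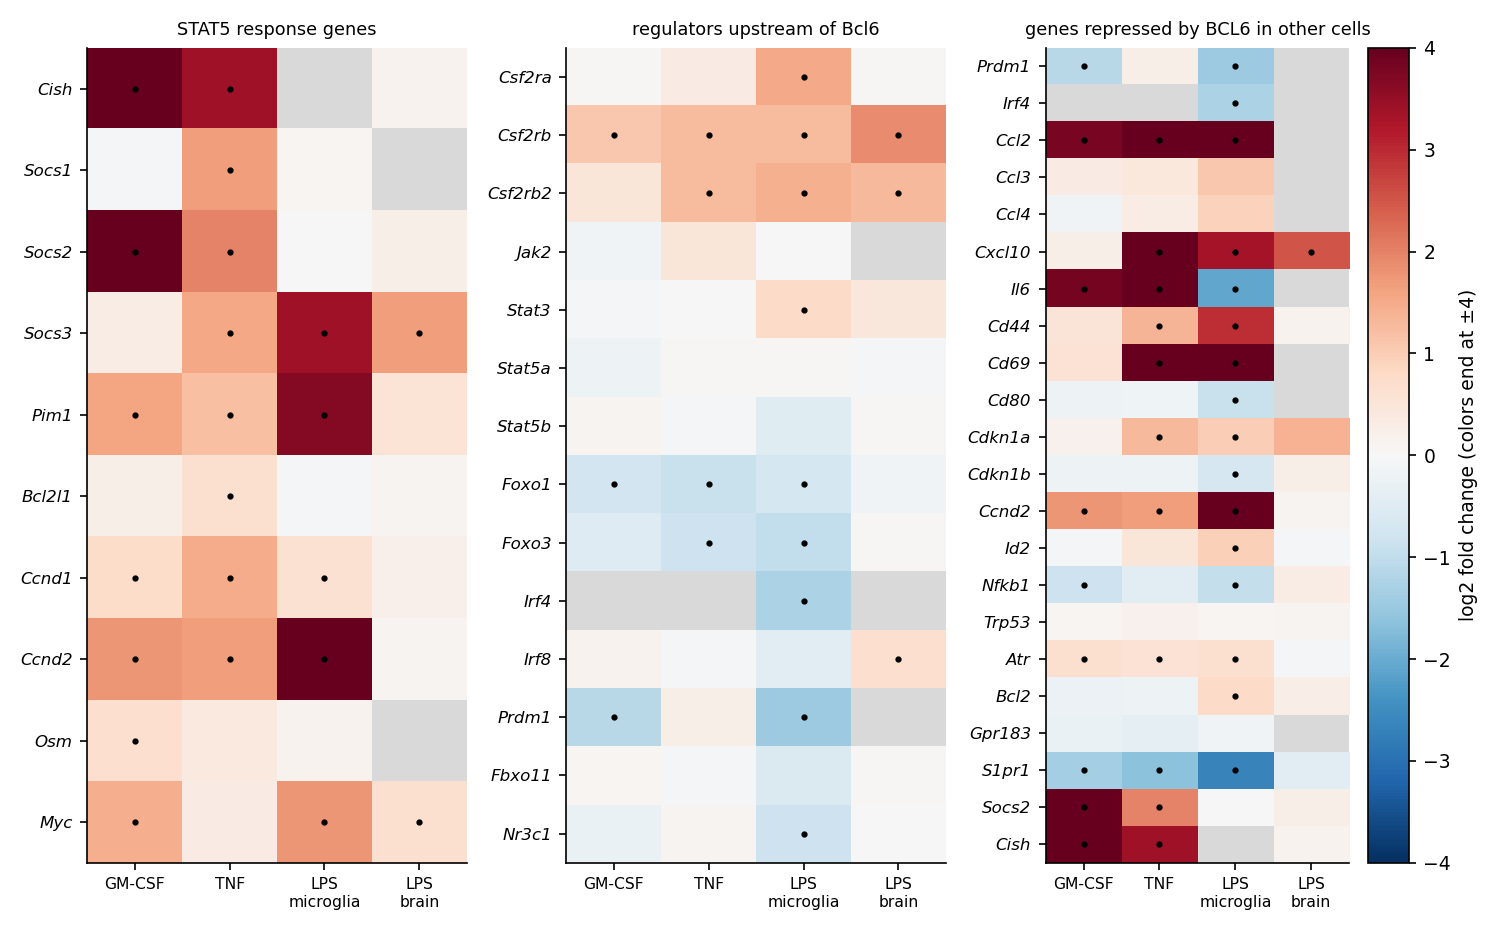
Log2 fold change of STAT5 response genes, regulators upstream of *Bcl6* and genes that BCL6 represses in other cells, by treatment, for the members shown here. Red is higher and blue lower than the control, a dot marks a call (adjusted p under 0.05 and fold over 1.5), gray was not tested and colors end at ±4. *Cish* and *Socs2* rise with both cytokines, by 5.77 and 4.98 with GM-CSF, and *Foxo1* falls in the 3 microglia treatments.

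Genes that BCL6 represses in other cells moved in both directions with GM-CSF. Of 22 tested members 6 were called higher and 4 lower, where 4.84% and 5.96% of all genes were, with a median log2 fold change of 0.12 against -0.04 over all genes. The higher members included *Ccl2*, *Il6* and, also counted among the STAT5 response genes, *Socs2*, *Cish* and *Ccnd2*. *Ccl2*, a chemokine that attracts monocytes, went from 55.3 ± 20.7 to 769 ± 108 CPM (SD, n = 9 each, log2 3.80, SE 0.16), and *Il6*, an inflammatory cytokine, from 1.42 ± 1.09 to 20.7 ± 4.62 CPM (3.84, SE 0.30). The lower members included *S1pr1*, a lipid receptor (184 ± 19.1 to 71.3 ± 15.9 CPM), *Nfkb1* and *Prdm1*.

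With TNF, where *Bcl6* was 1.28-fold lower, 11 of 22 were called higher and 1 lower (median 0.53), where 9.1% and 11.7% of all genes were. The difference between the counts of the cytokines was not tested. *Ccl2* reached 1704 ± 262 CPM (log2 4.95, SE 0.17), *Il6* 31.8 ± 8.06 and the interferon-induced chemokine *Cxcl10* 561 ± 67.6 CPM from 9.69 ± 5.13 (5.84, SE 0.30). *Cxcl10* was at 11.5 ± 6.64 CPM with GM-CSF (0.22, SE 0.29), and *Cd69*, an activation antigen, at 7.82 ± 4.25 CPM with GM-CSF and 187 ± 38.3 with TNF. With LPS in adult microglia 10 of 22 were called higher and 7 lower (median 0.70), against 14.4% and 13% of all genes, and *Ccl2* rose from 3.93 ± 1.45 to 131 ± 82.5 CPM and *S1pr1* and *Il6* fell by 2.66 and 2.07 on the log2 scale. In brain tissue 2 of 14 rose, among them *Cxcl10* (2.51), and 0 fell, where 2.63% and 0.55% of all genes did.

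Of 15 tested corepressors and partners of BCL6, 0 were called with GM-CSF in edgeR, where 4.84% of all genes were called higher and 5.96% lower. Between the cytokines 0 were called, where 8.25% and 7.96% of all genes were. *Hdac5*, a class IIa histone deacetylase, was at a log2 fold change of -0.54 with GM-CSF (adjusted p = 0.00255, edgeR), just under the fold limit. With TNF 1 fell, *Hdac5* (70.0 ± 15.7 to 41.8 ± 9.15 CPM), and 0 rose, where 11.7% and 9.1% of all genes did. The same gene was the only one of 16 called with LPS in adult microglia (log2 -0.86, SE 0.09). There 14.4% of all genes were called higher and 13% lower. In brain tissue 1 of 16 was called, where 2.63% of all genes were called higher and 0.55% lower. It was *Bcl6b*, the closest relative of *Bcl6*, which rose from 1.78 ± 0.393 to 5.79 ± 1.94 CPM (SD, n = 4 each, log2 1.70, adjusted p = 0.000819, edgeR). In adult microglia *Bcl6b* was at 1.58 ± 0.438 and 1.48 ± 0.309 CPM. In brain tissue the 5 endothelial markers summed to 140 to 160 CPM without and 150 to 216 with LPS, and their part in the *Bcl6b* level was not tested.

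*Bcl6* was also ranked per exon length among 16 listed genes with a BTB domain, not all of them with zinc fingers. In slice microglia in medium it was the second most abundant, at 8.77 ± 1.59 CPM per kb, after *Zbtb7a* at 9.54 ± 1.69. With GM-CSF it was at 0.968 ± 0.416 CPM per kb, the place of rank 10, while *Zbtb7a* was at 7.90 ± 1.29. In adult microglia *Bcl6* ranked 8 with PBS (2.85 ± 0.608 CPM per kb) and 6 with LPS (5.08 ± 0.623), against 18.7 ± 0.864 and 15.3 ± 1.11 for *Zbtb7a*. Of the 12 relatives tested in slices, GM-CSF lowered 3 and raised 0, and TNF lowered 3 and raised 0, where 5.96% and 11.7% of all genes were called lower. With both these were *Bach2*, *Zbtb38* and *Zbtb20*. *Bach2*, a repressor that works with BCL6 in B cells, went from 12.6 ± 4.06 CPM in medium to 5.83 ± 2.26 with GM-CSF and 7.87 ± 3.13 with TNF, and from 52.9 ± 3.17 to 24.0 ± 3.28 with LPS in adult microglia. *Zbtb20* was no longer called for GM-CSF with limma-voom (adjusted p = 0.0670), without the filter on low counts (edgeR, adjusted p = 0.0754) or with total counts (edgeR, adjusted p = 0.0784), and *Zbtb38* not with total counts, at -0.51 and under the fold limit.

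Glucocorticoid response genes gave no common direction. With GM-CSF 2 of 10 rose and 3 fell, against 4.84% and 5.96% of all genes. *Fkbp5*, a chaperone of the glucocorticoid receptor, rose from 122 ± 40.4 to 268 ± 60.0 CPM and *Klf9* from 3.79 ± 2.38 to 9.2 ± 2.55, while *Sgk1*, *Sult1a1* and *Dusp1* fell by 0.80, 1.02 and 1.10 on the log2 scale. With TNF 1 rose (*Cdkn1a*, log2 1.31) and 3 fell (*Dusp1*, *Sult1a1* and *Tsc22d3*), against 9.1% and 11.7% of all genes. With LPS 1 rose (*Cdkn1a*, 0.99) and 1 fell (*Sgk1*, -1.12) in adult microglia, against 14.4% and 13%, and 1 of 12 rose in brain tissue (*Sult1a1*, 1.51), where 2.63% of all genes did.

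The closest genes on chromosome 16 were mostly silent in microglia. Of 20 other annotated genes within 500 kb, 4 were tested in slice microglia, *Masp1*, *Rtp4*, *Lppos* and *Lpp*. *Sst*, the somatostatin gene 74094 bp away, held 55 counts over all slice libraries, and *Rtp2*, 32658 bp away, held 0. *Rtp4*, an interferon-induced gene 350830 bp away, fell with GM-CSF from 24.3 ± 8.96 to 5.60 ± 2.86 CPM (n = 9 each, log2 -2.12, SE 0.23), and rose with TNF to 192 ± 37.5 (2.98, SE 0.20) and with LPS in adult microglia (2.50, SE 0.56) and brain (2.00, SE 0.17). *Masp1*, a complement protease gene, fell with GM-CSF (-1.25, SE 0.30) and with LPS in adult microglia (-1.20, SE 0.34). *Rtp4* and *Masp1* overlap on opposite strands, so reads there are uncertain. *Lpp*, 404655 bp away on the other side, rose with GM-CSF from 31.2 ± 8.89 to 67.9 ± 17.8 CPM (1.12, SE 0.17) and with TNF (0.70, SE 0.16).

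**Figure D4:**
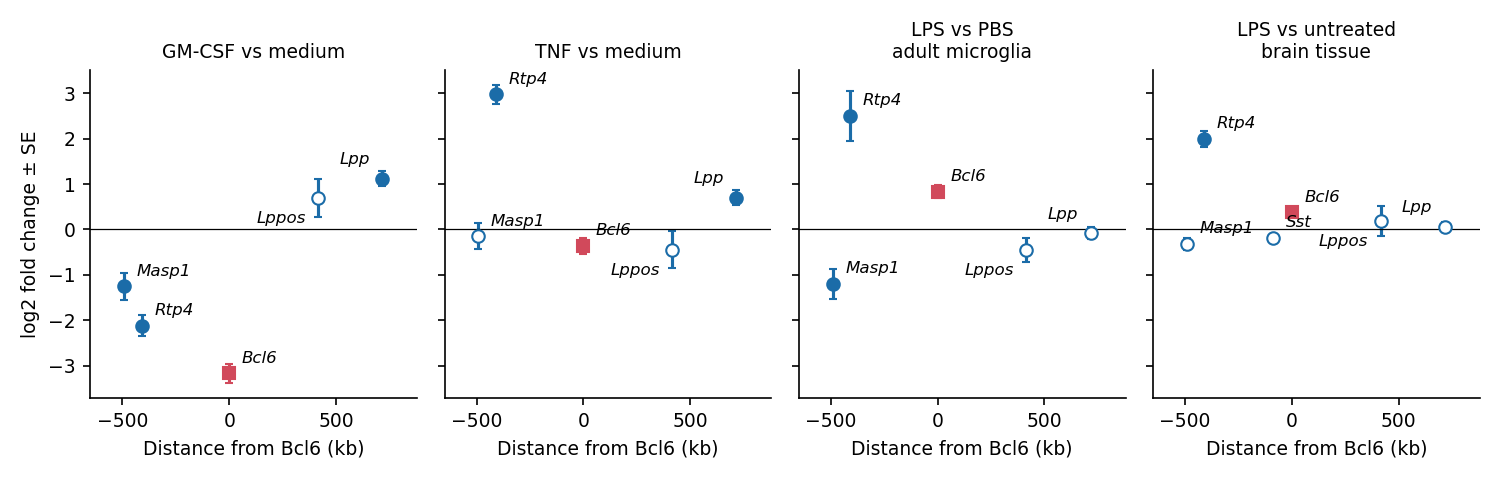
Log2 fold change ± SE of *Bcl6* (red square) and of the tested genes around it (blue circles, filled where called) against the distance of their midpoints in kb, by treatment. With GM-CSF *Bcl6*, *Rtp4* and *Masp1* are lower and *Lpp* is higher, and with LPS in adult microglia *Bcl6* and *Rtp4* are higher and *Masp1* is lower.

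The genes whose pattern over the 29 slice libraries was most like that of *Bcl6* were found among 8197 other genes of at least 10 CPM on average, by Pearson's r of log2 CPM. The libraries fall into 3 treatments and share library preparation, and *Bcl6* differs mostly by GM-CSF, so r is a description of that difference. The highest values were those of *Gpr137b* (0.918), a lysosomal membrane protein gene, *Pnrc1* (0.917), *Il10rb* (0.874), a chain of the IL-10 receptor, *Coro1b* (0.873) and *Gpr137b-ps* (0.867), a copy of the first with which it may share reads. *Gpr137b* was at 137 ± 17.1 CPM in medium, 116 ± 18.4 with TNF and 64.0 ± 10.36 with GM-CSF. The lowest values were those of *Spint1* (-0.918), *Coro2a* (-0.908), *Wdr12* (-0.904), *Acly* (-0.903) and *Ccl6* (-0.903). *Acly*, which makes acetyl-CoA for lipid synthesis, was at 370 ± 43.4, 383 ± 46.9 and 774 ± 100 CPM in the same order, and the chemokine *Ccl6* at 658 ± 175, 950 ± 339 and 2995 ± 406 CPM. After centering each gene within its treatment, r was 0.492 for *Gpr137b*, -0.572 for *Wdr12* and between -0.236 and 0.220 for the other 8.

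Within treatments, the libraries with more *Bcl6* did not have a set of genes that passed the test. Each gene was fitted on the *Bcl6* log2 CPM centered within its treatment, and 0 of 11312 genes (0%) passed an adjusted p of 0.05 in edgeR, with 499 genes at an unadjusted p under 0.05 and 0 genes by limma-voom. The smallest adjusted p was 0.997. With the title code as a covariate 688 genes were under an unadjusted 0.05, 0 passed and the smallest adjusted p was 0.0597, that of *Zxdc*. Positive coefficients with the smallest p belonged to *Fam222b*, *Rnf157*, *Osgin1*, *Rbm22* and *Sgsh*, and negative ones to *Fam102b*, *Mob1b*, *Zxdc*, *Endod1* and *Wdr73*, all with an adjusted p of 0.997 in edgeR. *Osgin1*, a gene of the oxidative stress response, had a coefficient of 0.60 (SE 0.16) per log2 unit of *Bcl6* and r of 0.669, 0.612 and 0.574 in medium, TNF and GM-CSF. *Sgsh*, a lysosomal sulfatase gene, had 0.72 (SE 0.20) and r of 0.629, 0.689 and 0.603. No coefficient was detectable beyond the spread at this number of libraries.

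The relation of *Bcl6* to 10 chosen genes was also computed within each treatment, 30 relations in all, by two-sided permutation tests, exact for the groups of 9. None passed after adjustment by Benjamini and Hochberg: 4 of 30 had an unadjusted p under 0.05. The largest was that of *P2ry12*, a purinergic receptor of homeostatic microglia, in medium (r = -0.876, exact permutation p = 0.00328, adjusted p = 0.0984, Spearman's rho = -0.833, exact p = 0.00827, adjusted p = 0.207, n = 9). Without the 2 libraries farthest from the median of *Bcl6* it was -0.745. *P2ry12* gave r of -0.552 with TNF and -0.241 with GM-CSF, so the sign was the same in the 3 treatments.

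The other 3 relations with an unadjusted p under 0.05 each came from 1 treatment. *Foxo1* gave r of 0.775 with GM-CSF (exact permutation p = 0.0168, adjusted p = 0.188, rho = 0.800, exact p = 0.0138, adjusted p = 0.207, n = 9) and 0.116 and 0.125 in medium and TNF. *Ccl2* gave -0.685 with TNF (permutation p = 0.0188, adjusted p = 0.188, rho = -0.455, permutation p = 0.163, adjusted p = 0.641, n = 11), and 0.308 and 0.250 in medium and GM-CSF. *Fkbp5* gave 0.630 with TNF (permutation p = 0.0393, adjusted p = 0.295, rho = 0.418, permutation p = 0.203, adjusted p = 0.641, n = 11). Without the 2 libraries farthest from the median of *Bcl6*, r was 0.430 for *Foxo1* with GM-CSF. With TNF it was then -0.359 for *Ccl2* and 0.452 for *Fkbp5*. *Socs2* gave -0.150, 0.0113 and -0.136 in medium, TNF and GM-CSF, and *Cish* 0.423, -0.299 and 0.472. Neither of these genes had an unadjusted permutation p under 0.05 in any treatment. So few libraries per treatment cannot tell a weak relation from none. *Prdm1* gave 0.316, 0.525 and -0.385. With both genes centered within the title code, r in medium was 0.915 for *Prdm1* and -0.910 for *P2ry12* (permutation, adjusted p = 0.0250 for each, n = 9). That permutation ran over all 9 libraries and not within codes. Its p is therefore not exact and cannot decide whether these relations pass. By Spearman's rho neither passed after adjustment.

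**Figure D5:**
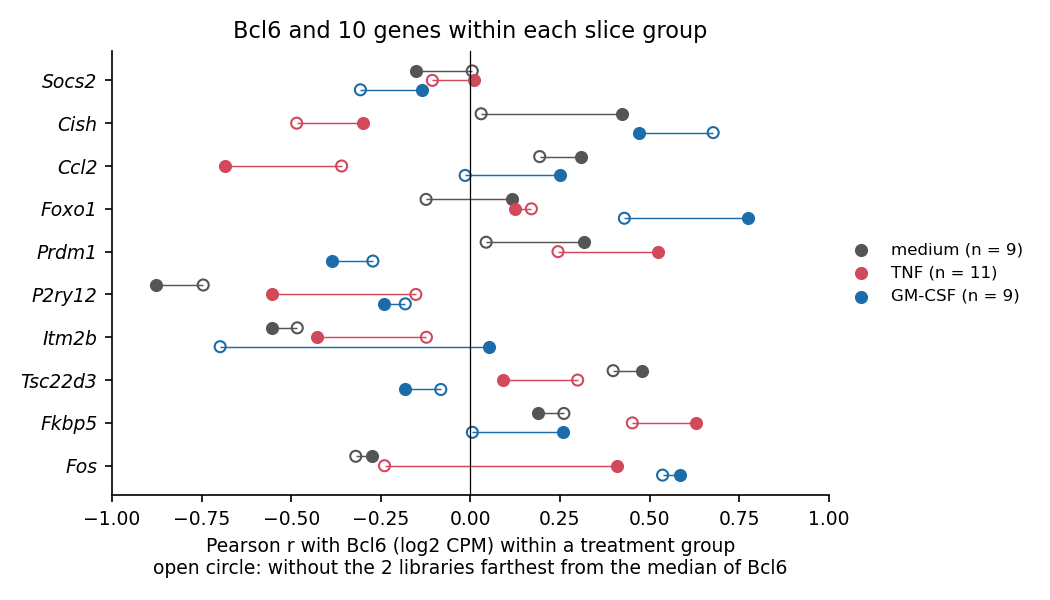
Pearson r of log2 CPM between *Bcl6* and 10 genes within medium (n = 9), TNF (n = 11) and GM-CSF (n = 9). Filled circles use all libraries and open circles leave out the 2 libraries farthest from the median of *Bcl6*. *P2ry12* lies below 0 in all 3 treatments, at -0.876 in medium, and most other genes change sign.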

How the data were processed

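RNA sequencing of 45 samples in 3 tables was used. For slice microglia the authors deposited whole-number counts per gene, and for adult microglia and brain tissue estimated counts per gene. The authors deposited the values of each estimated count unscaled, and they were rounded to whole numbers here. The submitters' processing notes name mm10 and, for slice samples, STAR 2.7.0a and featureCounts of Subread 1.6.4. The sources used here do not give the annotation release or the use of strand. Microglia were prepared with SMART-Seq v4 and Nextera XT, brain tissue with TruSeq. Library totals were 5973364 to 9165485 (slices), 11391564 to 14216005 (adult microglia) and 8199863 to 10368578 (brain). Of the rows for brain tissue, 92 name no mouse gene, held 0 counts and were left out. Per-sample columns without a sample numbered 0.

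Groups came from the labels. The study gives the LPS samples as coming from separate mice and the slice samples as pools of separately treated slices. Which pools share animals is not given, so slice p-values measure the spread between these pools. *Bcl6*, the gene lists and the comparisons were chosen with earlier results of these data known. Counts were tested with edgeR 4.0.16 in R 4.3.3 (quasi-likelihood, robust, TMM, expression filter at a count of 10 and total of 15, Benjamini-Hochberg adjustment). A call needed an adjusted p under 0.05 and a fold over 1.5. The 29 slice samples were fitted together, each LPS comparison alone and their difference as an interaction. SE is the fold change divided by the root of F. Log2 CPM used a prior count of 2. Correlations used exact permutation for 9 samples and 100000 resamples for 11. The scripts were tested on simulated data. Named genes were *Bcl6*, up to 4 called members per list and comparison with the smallest p, fixed examples, 5 covarying and 5 alike genes per direction, 10 chosen genes for correlation and genes annotated within 500 kb. A few further list members are named. Symbols came from GENCODE M21, which named 55450, 47224 and 42929 identifiers of the 3 tables, and start windows from RefSeq. Alternatives were DESeq2 1.42.0, limma-voom (limma 3.58.1), other scalings, no filter, the title code, the replicate block and single libraries left out. A few list members are counted but not reported here by name.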

Additional observations from a re-analysis of the deposited data

Results flagged for a closer look

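In 6 groups of 4 to 9 samples, 0 *Bcl6* levels stood apart from their group by Dixon's criterion, and the group of 11 was not checked. For 10 genes the LPS effects of adult microglia and brain tissue were compared by the edgeR interaction test. Of those tested in both, 3 differed at an adjusted p under 0.05. With the fold limit of 1.5 added, 19.7% of 16676 genes were called. *Foxo1* and *Stat5b* stayed under that fold limit, and *Bcl6b* passed it. *Foxo1* was 0.58 lower on the log2 scale in the microglia effect (-0.58, SE 0.11, adjusted p = 0.000462), where LPS gave -0.70 in microglia and -0.13 in brain. *Stat5b* differed by -0.54 (SE 0.11, adjusted p = 0.000889), with -0.48 and 0.05. *Bcl6b* differed by -1.80 (SE 0.41, adjusted p = 0.00206), with -0.10 and 1.70. Kit, tissue and kind of control coincide with this contrast, and the cause of the differences was not tested.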

How the results depend on the processing

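The *Bcl6* change kept its direction in every alternative run. For GM-CSF it ran from -3.26 to -3.07 on the log2 scale over the scalings, tools, filters and title codes, and from -3.33 to -3.07 with 1 library left out. For TNF it ran from -0.43 to -0.29 both over those settings and with 1 library left out, and for TNF against GM-CSF from 2.65 to 2.86 and from 2.71 to 2.98. For LPS in adult microglia the ranges were 0.81 to 0.84 and 0.76 to 0.98, and in brain tissue 0.36 to 0.39 and 0.32 to 0.44. The difference of the LPS effects ran from 0.41 to 0.48, the value without the filter on low counts (0.48, adjusted p = 0.0416, edgeR) being past the threshold, and from 0.37 to 0.60 with 1 library left out.

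Counts of calls with 1 library left out, chosen as an alternative after seeing the data, ran from 1137 to 1235 for GM-CSF, 2289 to 2385 for TNF, 1782 to 1861 between the cytokines, 3373 to 4044 for LPS in adult microglia and 412 to 543 in brain. List members called ran from 20 to 25, 26 to 28, 17 to 19, 31 to 38 and 8 to 11. Also chosen after seeing the data, a fit of codes 2A and 2B only called 785 genes with GM-CSF against 1222, and a fit of codes 1A and 1B only called 1216. The cause was not tested. The counts of calls with the replicate block were likewise added later. Scaled by total counts, TNF against GM-CSF gave 694 higher and 1514 lower calls in place of 933 and 900, with a median of -0.19 against -0.02 over all genes. Without the filter on low counts 6 genes covaried with *Bcl6* within treatments, *Cdk15*, *Papss2*, *Gm37978*, *Gm45534*, *Rep15* and *Otud7a*, named after their values were seen, with 12 to 52 counts in all and 3 to 6 libraries with a count. With both genes centered within the title code, 2 of 30 correlations had an adjusted p under 0.05 by Pearson's r and 0 by Spearman's rho. Both were in medium, *Prdm1* (r = 0.915, permutation p = 0.00167, adjusted p = 0.0250, n = 9) and *P2ry12* (r = -0.910, permutation p = 0.000984, adjusted p = 0.0250, n = 9). The permutation ran over all 9 libraries and not within codes, so these p-values are not exact. Code 1B has 1 medium library, whose centered value is 0. Of 420 values of named list members under other settings, 8 lost their call and 0 reversed.

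The labels give no pairing by replicate number, though most same-numbered GM-CSF and medium libraries carry the same title code. Same-numbered deviations correlated from 0.0168 to 0.111 for GM-CSF and medium (2 of 9 pairs over 0.1). For TNF and medium they correlated from 0.0412 to 0.184 (4 of 9 pairs over 0.1). Whether same-numbered libraries share a source cannot be told from these values. Of 9 libraries each, 2 with GM-CSF and 4 with TNF matched their own number best. With the replicate block *Bcl6* was at -3.21 for GM-CSF, -0.50 for TNF, 2.71 between the cytokines, 0.84 and 0.37 for LPS in adult microglia and brain and 0.46 for their difference, and GM-CSF called 1258 genes, TNF 2423, LPS 3452 in adult microglia and 448 in brain. Depth limits *Bcl6* with GM-CSF most, at 16 to 88 counts per library.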
